A study of Zeugodacus cucurbitae with 52 samples.

Results

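The melon fly genes gene5345 and gene12712 encode a protamine-like protein and a histone H1-like protein, and they were chosen for their levels over the life cycle, gene5345 as a gene of sperm chromatin and gene12712 as a gene of egg chromatin. They are 2 of the 18241 genes in the table. Both were chosen on the levels reported here, so these levels are a description and carry no test. RNA was sequenced from whole bodies of laboratory-reared Zeugodacus cucurbitae at 13 stages with 4 libraries each, 52 libraries in all: eggs, larvae at 1, 3 and 7 days, pupae at 1, 5 and 9 days, and females and males at 1, 5 and 9 days. Each library was a pool of animals, of only 3 individuals for pupae and for adults. The adults were virgin, no strain, mutation or treatment was involved, and the labels do not give the sex of the eggs, larvae or pupae. Values are in TPM, transcripts relative to the library total, in which a gene's reads are divided by its length and by the total of its library. Levels may thus be compared between genes within a library. Between stages they compare shares of the library total, and the libraries had not been scaled to each other. The table names gene5345 LOC105211560 (protamine-like, 654 nt) and gene12712 LOC105219543 (histone H1-like, 531 nt).

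In most nuclei DNA is wound around core histones, and the linker histone H1 binds the DNA between them and packs the fibre. In the male germ line of many animals the histones are removed late in sperm formation and replaced by protamines, small basic proteins rich in arginine. In Drosophila the sperm nucleus carries protamines and other protamine-like proteins, and the egg supplies the histones and chaperones that unpack it after fertilization. The egg also stores histone mRNA and protein for the cleavage divisions, and Drosophila eggs hold an embryonic form of linker histone. The libraries were made from polyadenylated RNA, whereas mRNAs of histones made during DNA replication usually end in a stem-loop without a poly(A) tail, so the levels of the histone genes here cover polyadenylated copies.

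The protamine-like gene5345 was high in males and in older pupae, and at or near 0 in the other stages. In 9-d-old males its 4 libraries read 1268.93, 1044.82, 1138.12 and 1052.23 TPM, with a mean of 1126 ± 104 TPM (SD, n = 4). At 5 days the male libraries read 764.24, 783.6, 873.1 and 822.51 TPM, and in 1-d-old males 736.6, 645.39, 784.81 and 707.6 TPM. Every library of the oldest males was above every library of the younger males, whereas the ranges of the 2 younger ages overlapped. The mean in 9-d-old males was 1.39 ± 0.08 times that in 5-d-old males (SE of the ratio of 2 means of 4 libraries) and 1.57 ± 0.10 times that in 1-d-old males. After median-of-ratios scaling, which levels the libraries on the genes above 1 TPM in every library, these ratios were 1.25 and 1.23. Within the libraries of 9-d-old males gene5345 ranked between 121 and 184 among all 18241 genes.

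No female library read more than a trace of gene5345. It was listed at 0 in all 4 libraries of 5-d-old females and in all 4 of 9-d-old females, and the 4 libraries of 1-d-old females read 0, 0, 0 and 0.17 TPM. Eggs read 0, 0, 0.15 and 0.8 TPM, 1-d-old larvae 0, 0, 0.12 and 0.12 TPM, 3-d-old larvae 0.11, 0.1, 0 and 0 TPM, and 7-d-old larvae 0.71, 0.27, 0.14 and 0.13 TPM. In 1-d-old pupae it read 0.64, 1.19, 0.61 and 0.25 TPM. The ranges of these low stages overlapped each with the next, so no order among them is given. Read counts were not used here, so a value of 0 has no counting limit.

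In 5-d-old pupae gene5345 stood far above this low level in 3 of 4 libraries. The 5-d-old pupae read 182, 2.62, 503.2 and 312.78 TPM, and the 9-d-old pupae 326.03, 391.46, 314.32 and 954.23 TPM. Replicate 2 of the 5-d-old pupae stood close to the 1-d-old pupae, and replicate 4 of the 9-d-old pupae stood among the males. Without replicate 2 the mean of the 5-d-old pupae was 333 TPM in place of 250.15 TPM. Males held 78.0% of the sum of the 13 stage means of gene5345, and the 5-d-old and 9-d-old pupae held 21.9%.

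**Figure D1:**
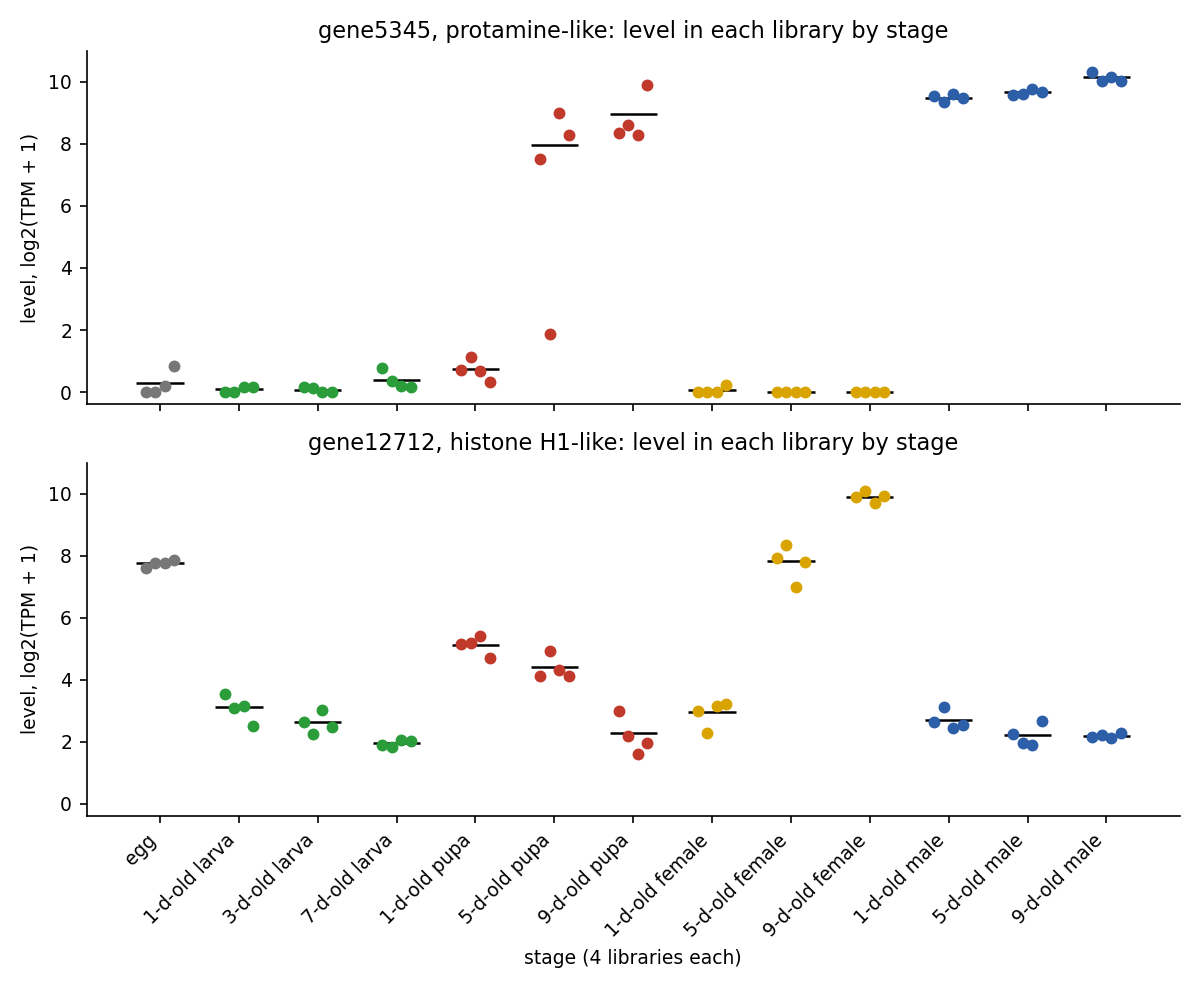
Level of gene5345 (top) and gene12712 (bottom) as log2(TPM + 1) in each of the 52 libraries, by stage, with points coloured by egg, larva, pupa, female and male and a line at the level of the mean TPM of 4 libraries. The protamine-like gene is high in the 12 libraries of males and in 7 of the 8 libraries of 5-d-old and 9-d-old pupae, and the histone H1-like gene in eggs and in 5-d-old and 9-d-old females.

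The histone H1-like gene12712 had its highest levels where gene5345 was at or near 0. In 9-d-old females its libraries read 947.99, 1086.69, 820.47 and 965.14 TPM, with a mean of 955 ± 109 TPM (SD, n = 4), and in each of them it ranked between 139 and 186 among all genes. In 5-d-old females they read 240.87, 321.06, 126.45 and 219.93 TPM, and in eggs 194.29, 216.18, 217.55 and 233.03 TPM. The 5-d-old females and the eggs overlapped, and both lay below every library of 9-d-old females. Eggs and the females of 5 and 9 days together held 93.7% of the sum of its 13 stage means.

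In females gene12712 was higher at each later age after emergence. The 1-d-old females read 6.87, 3.83, 7.91 and 8.26 TPM, so the mean at 9 days was 142 ± 22.8 times that at 1 day, or 61.7 times after median-of-ratios scaling. The step from 5 to 9 days was 4.21 ± 0.78 times, or 2.98 times after scaling. The 1-d-old males, with 5.17, 7.67, 4.38 and 4.87 TPM, overlapped the females of that age, and the mean in females was 1.22 ± 0.24 times theirs. In 9-d-old males, with 3.42, 3.61, 3.37 and 3.88 TPM, gene12712 stayed low, and the mean in females of that age was 268 ± 17.5 times theirs, or 157 times after scaling. Whole bodies were sequenced, so a larger share of cells that express a gene and more RNA per cell cannot be told apart for any value here.

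After hatching gene12712 was low. The eggs had a mean 27.9 ± 4.58 times that of the 1-d-old larvae, which read 10.74, 7.48, 7.99 and 4.7 TPM, and the ratio was 17.4 after scaling. The 3-d-old larvae read 5.16, 3.79, 7.22 and 4.58 TPM and the 7-d-old larvae 2.7, 2.55, 3.15 and 3.07 TPM, the lowest mean of the 13 stages. Early pupae were again higher, though far below the eggs. The 1-d-old pupae read 34.28, 35.01, 41.36 and 25.23 TPM, with a mean 11.8 ± 1.3 times that of the 7-d-old larvae, or 4.35 times after scaling. The 5-d-old pupae read 16.22, 29.3, 18.74 and 16.55 TPM and overlapped them. The 9-d-old pupae read 6.87, 3.6, 2.07 and 2.9 TPM, below every library of the 5-d-old pupae. Replicate 2 of the 5-d-old pupae, the lowest of its stage for gene5345, was the highest for gene12712. Shorter cleaned reads were deposited for eggs, pupae, 1-d-old adults and 2 of the 4 libraries of 7-d-old larvae than for the other libraries, so between eggs and larvae, between eggs and 9-d-old females and between 1-d-old and older adults read length and stage cannot be told apart, whereas the comparison of 5-d-old with 1-d-old pupae and each comparison of the sexes at 1 age lie within 1 read length.

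Each of the 2 genes had a pair of other genes with the same product name. The protamine-like genes gene9851 and gene593 kept the pattern of gene5345 at lower levels. In 9-d-old males gene9851 had a mean of 420 ± 38.9 TPM and gene593 of 128 ± 17.7 TPM (SD, n = 4). Over the 19 libraries of males, of 9-d-old pupae and of 5-d-old pupae other than replicate 2, the level of gene5345 was 2.42 to 2.73 times that of gene9851 and 8.47 to 11.7 times that of gene593. In these libraries gene5345 held between 65.6% and 68.4% of the summed level of the 3 genes. The sum ranged from 479 to 1407 TPM among the 9-d-old pupae alone. Whether the copies share reads was not examined.

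The 3 histone H1-like genes had 3 different patterns. The gene gene3237 was male-restricted, with means of 68.3, 75.3 and 86.9 TPM in males of 1, 5 and 9 days, and it was listed at 0 in every library of 5-d-old and 9-d-old females and in every larval library. Its pupal values were 21.92, 0.15, 65.13 and 29.54 TPM at 5 days and 31.38, 29.55, 25.87 and 78.5 TPM at 9 days, low and high in the same libraries as gene5345. The gene gene7946 was present in both sexes. In males its means were 14.6, 17.5 and 26.1 TPM at 1, 5 and 9 days, and in females 0.138, 103 and 221 TPM. Unlike gene12712 it was low in eggs, with 14.03, 11.06, 9.15 and 11.47 TPM, and at or near 0 in larvae and in 1-d-old pupae.

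Different genes held most of the summed level of the 3 H1-like genes in females and in males. These sums cover polyadenylated RNA of genes matched by product name, so they are not the whole of linker histone mRNA. In eggs gene12712 held 94.9 ± 1.15% of the summed level of the 3 H1-like genes (SD, n = 4). Its share was 81.2 ± 2.29% in 9-d-old females, 67.6 ± 5.54% at 5 days in females, and 3.15 ± 0.71% in 9-d-old males. In 9-d-old males gene3237 held 74.4 ± 1.89%. The summed level was 1176 ± 128 TPM in 9-d-old females, 227 ± 14.8 TPM in eggs and 117 ± 19.2 TPM in 9-d-old males. Set against the summed level of the histone genes H4 (gene6094), H3.3 (gene6540) and H2A.v (gene1436), the H1-like sum was 0.85 in 9-d-old females, 0.16 in eggs and 0.19 in 9-d-old males, a ratio within each library that does not depend on scaling between libraries.

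**Figure D2:**
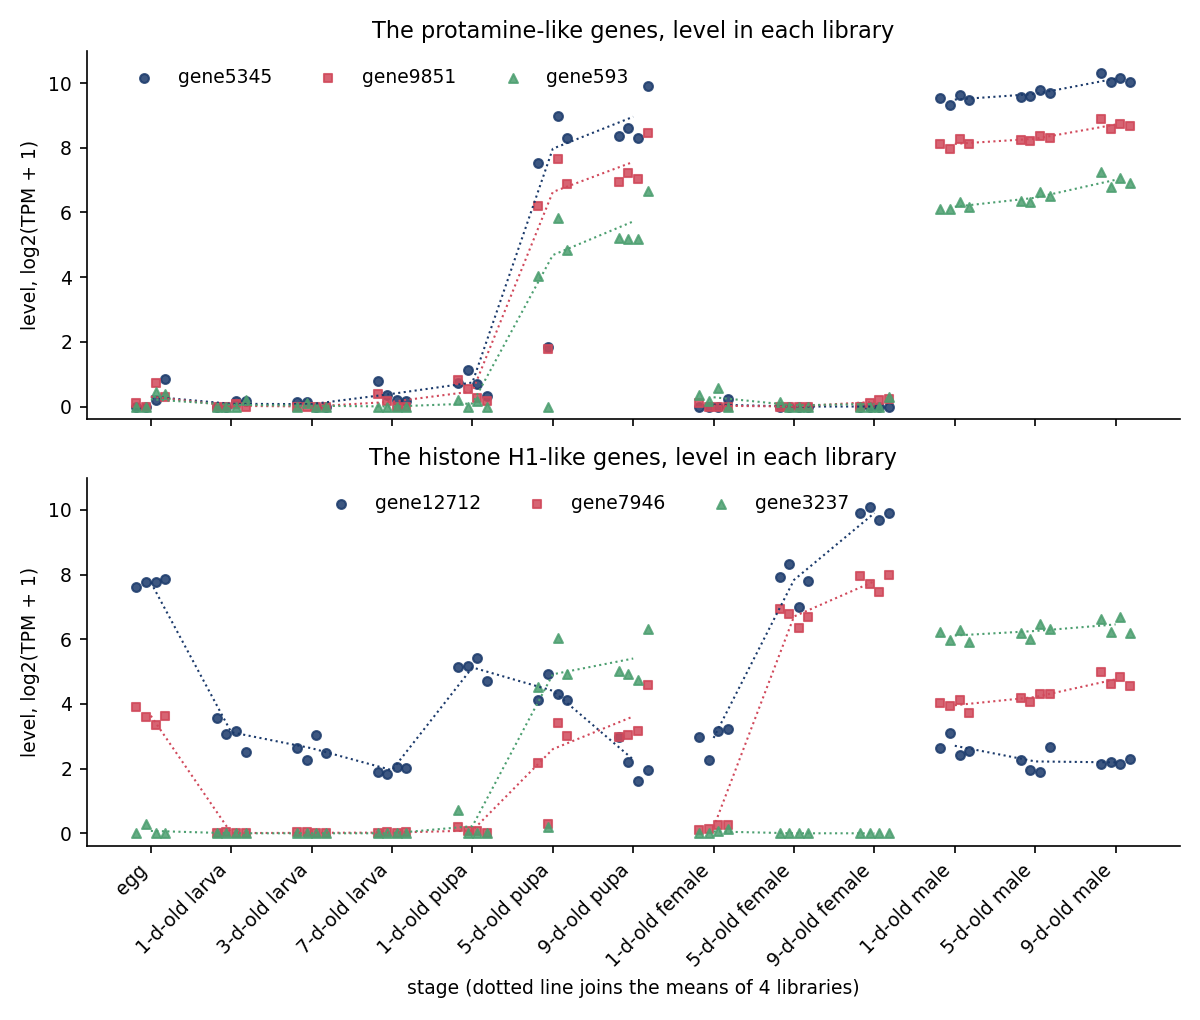
Level as log2(TPM + 1) in each library of the 3 protamine-like genes (top) and the 3 histone H1-like genes (bottom) by stage, with dotted lines joining the levels of the stage means within development, females and males. The protamine-like genes keep 1 order in males and older pupae, whereas each histone H1-like gene follows its own course.

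The pupal libraries that stood apart for gene5345 did so for male-restricted genes in general. A group of 366 genes had at least 10 TPM in every male library and at most 1 TPM in every female and larval library, and 6 of them, gene5345 included, had at least 500 TPM in every male library. This group was formed from the levels in adults and larvae, so it is a description of the pupae only. Replicate 2 was the lowest of the 5-d-old pupae for 362 of the 366 genes, and replicate 4 was the highest of the 9-d-old pupae for 362 of them. Relative to the mean in 1-d-old males, the median of the group in replicates 1 to 4 was 25.2%, 0.931%, 71.8% and 42.6% at 5 days. At 9 days it was 47.7%, 47.0% and 124% in replicates 1, 3 and 4, and in replicate 2 it lay between quartiles over genes of 46.0% and 54.0%. For gene5345 the same percentages were 25.3%, 0.365%, 70.0% and 43.5% at 5 days and 45.4%, 54.5%, 43.7% and 133% at 9 days. Replicate 2 at 5 days and replicates 1, 3 and 4 at 9 days were among the 6 libraries of lowest mapped share. Of these, replicate 2 at 5 days had the lowest share of all libraries. Each pupal pool held 3 animals, whose sex is not given. The part of mapping or of the makeup of the pools in these differences was not tested.

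**Figure D3:**
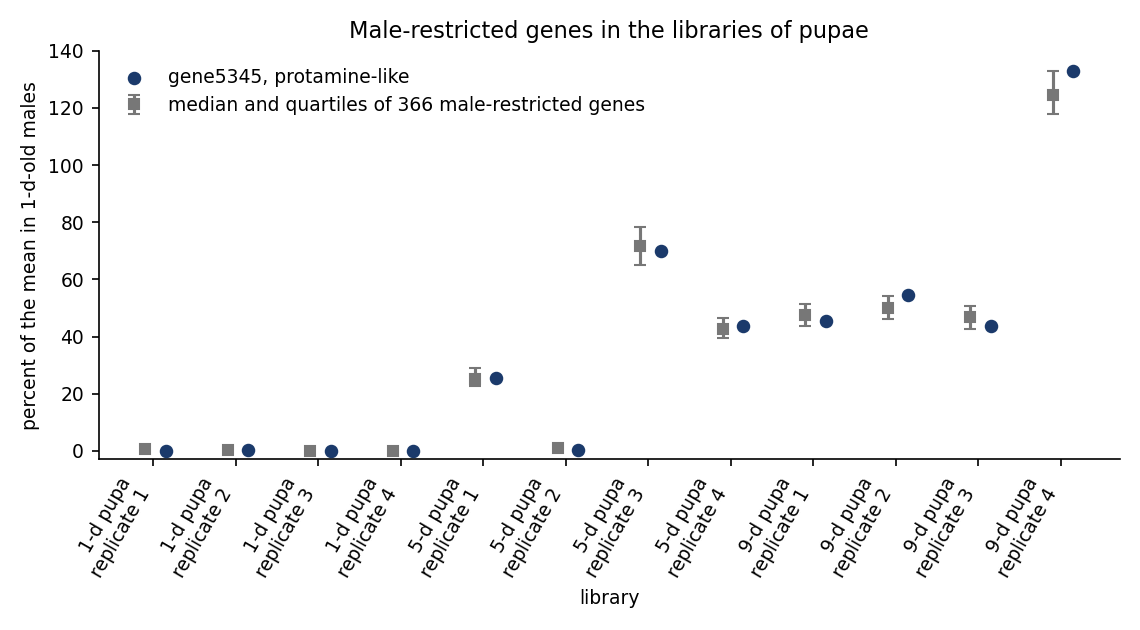
Level in each pupal library as a percentage of the mean level in 1-d-old males, for gene5345 (circles) and as the median of 366 male-restricted genes (squares, with bars from the lower to the upper quartile over genes). Replicate 2 at 5 days lies near 0 like the 1-d-old pupae, and replicate 4 at 9 days lies above 100.

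Genes were compared between stages with limma, a linear model fitted across all 17097 genes above the filter on low values. The chosen pair was in this fit and in the shares of all genes, but in no list count, and its test results are not given. A gene was called when the log2 fold change of TPM + 1 was beyond 2 in either direction with a Benjamini-Hochberg adjusted p below 0.05. Between males and females of 9 days 16.9% of all genes were called, 6.81% higher in males and 10.1% higher in females. A list of histone and sperm nuclear protein genes, matched on product names, held 11 other genes, among them the high mobility group proteins HMG-D and DSP1 and histone H4 transcription factor, which are neither. Of the 11, 3 were higher in males and 5 higher in females. The 3 were gene9851, gene593 and gene3237, at log2 fold changes of 8.57 ± 0.53, 6.93 ± 0.52 and 6.44 ± 0.52 (SE), with limma adjusted p of 2.22e-18, 9.07e-16 and 1.06e-14. These standard errors are large because 1 spread is fitted to a gene over all stages, the uneven pupae included.

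The 5 genes higher in 9-d-old females were gene7376 (histone H3.4-like), gene7615 (HMG-D, a chromatin protein of the high mobility group that in Drosophila is abundant in early embryos), gene7946, gene1436 (H2A.v, a variant core histone) and gene13266 (histone H4 transcription factor, a regulator and no histone). In the libraries of 9-d-old females gene7376 read 60.43, 72.89, 54.39 and 65.88 TPM and in those of 9-d-old males 1.85, 1.7, 1.37 and 2.22 TPM, a log2 fold change of -4.53 ± 0.22 from female to male. For gene7615 the log2 fold change was -3.77 ± 0.17, for gene7946 -3.03 ± 0.32, for gene1436 -3.004 ± 0.17 and for gene13266 -2.56 ± 0.11. Their limma adjusted p lay between 1.88e-24 and 2.36e-11, and in each the 4 libraries of 1 sex did not overlap those of the other. The 3 genes not called were H4 (gene6094, -0.45), H3.3 (gene6540, -0.97) and the high mobility group protein DSP1 (gene2987, -1.71).

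Scaling bore on part of these calls. Median-of-ratios scaling moved the median log2 fold change of all genes between 9-d-old males and females from 0.12 to 0.35, and the called genes split into 1805 higher in males and 845 higher in females in place of 1165 and 1724. Under it the change of gene13266 was -1.80 and no longer called, and H4 turned from -0.45 to 0.31, uncalled on either scale. The other 7 called genes of the list were called in the same direction.

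Of the genes higher in 9-d-old females, most differed little between the sexes at 1 day. At 1 day, when 4.64% of all genes were called, 4.52% higher in males and 0.117% higher in females, the list had 4 genes higher in males and 0 higher in females. At 5 days, when 10.7% were called, 5.85% higher in males and 4.84% higher in females, it had 3 and 4. The difference at 9 days minus that at 1 day, tested in the same limma fit, was 0.48 ± 0.75 for gene9851 (adjusted p = 0.634), 1.02 ± 0.73 for gene593 (0.251) and 0.39 ± 0.74 for gene3237 (0.701). For gene7376 it was -5.19 ± 0.31, for gene7615 -3.95 ± 0.23 and for gene1436 -3.06 ± 0.23, each with an adjusted p under the threshold (3.35e-15 at the most). The standard errors of gene9851, gene593 and gene3237 take in the uneven pupae, so their p does not measure the spread among adults. In males the mean at 9 days was 1.51, 1.79 and 1.27 times that at 1 day for these genes, or 1.19, 1.41 and 0.999 times after median-of-ratios scaling. The unscaled male libraries of the 2 ages lay apart for gene9851 and gene593 and overlapped for gene3237.

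The H1-like gene7946 changed sides. At 1 day it was higher in males, with 15.47, 14.37, 16.3 and 12.08 TPM against 0.07, 0.09, 0.19 and 0.2 TPM in females, a log2 fold change of 3.77 ± 0.32 (limma adjusted p = 2.97e-13). At 5 days it was higher in females, with 120.41, 109.96, 80.7 and 101.64 TPM against 17.04, 15.76, 18.67 and 18.65 TPM in males, a change of -2.48 ± 0.32 (limma adjusted p = 6.06e-09). The difference between the sexes at 9 days minus that at 1 day was -6.79 ± 0.45 (limma adjusted p = 4.00e-17), and it was -6.18 after median-of-ratios scaling. The libraries of the sexes did not overlap at any of the 3 ages.

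**Figure D4:**
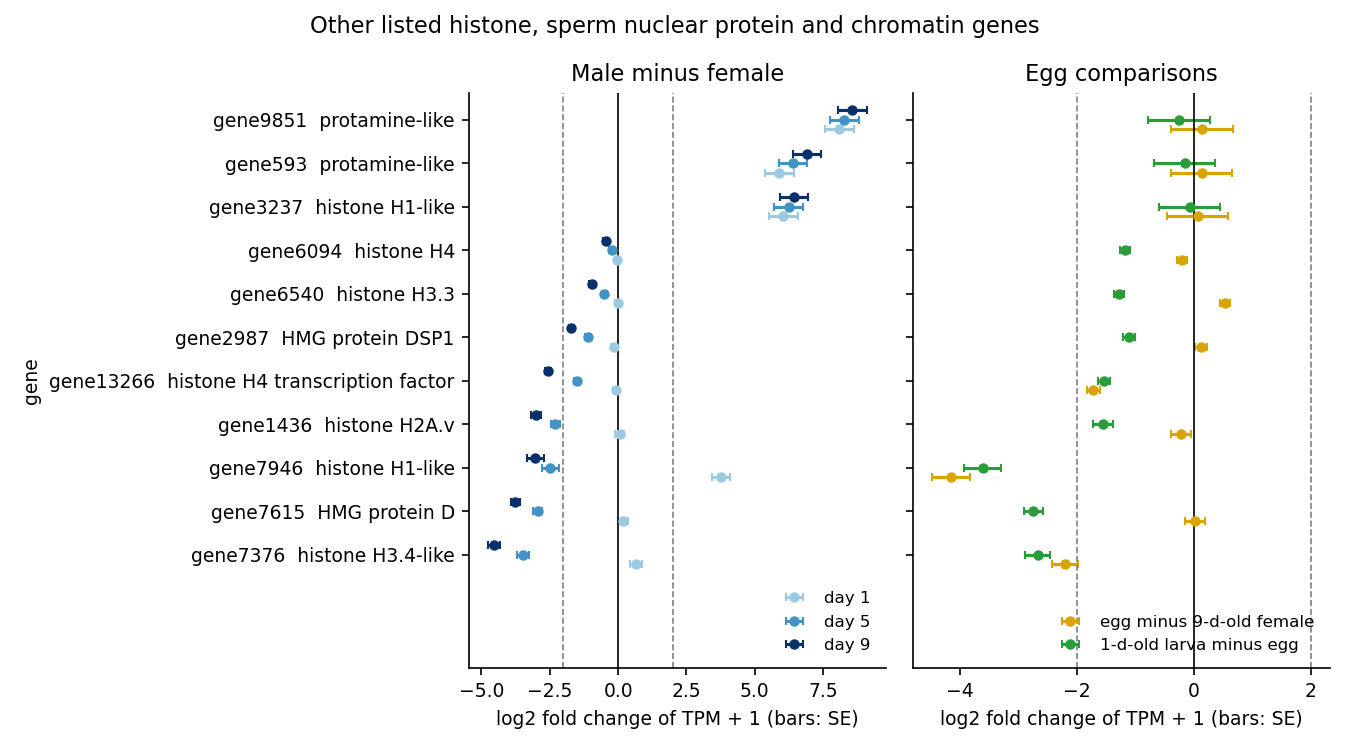
Log2 fold change of TPM + 1 with its SE for the 11 other listed genes of histones, sperm nuclear proteins, HMG proteins and histone H4 transcription factor, male minus female at 1, 5 and 9 days (left) and in 2 comparisons with eggs (right); dashed lines mark a change of 2 in either direction. The protamine-like genes and gene3237 lie near or above 6 at each age in males, and gene7946 lies above 2 at day 1 and below -2 at days 5 and 9.

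Eggs were compared with 9-d-old females and with 1-d-old larvae. The females were virgin and so not the mothers of these eggs, which were sampled within hours of laying. The values do not separate RNA laid down by the mother from RNA made in the egg. Between eggs and 9-d-old females 16.9% of genes were called, 6.93% higher in eggs and 10.0% higher in females. Of the 11 listed genes 2 were higher in females and 0 in eggs, namely gene7946 (-4.16 ± 0.32, limma adjusted p = 2.01e-15) and gene7376 (-2.21 ± 0.22, adjusted p = 4.05e-12, and uncalled at -1.58 after median-of-ratios scaling). HMG-D, at 0.02 ± 0.17, and H2A.v, at -0.22 ± 0.17, were not called, and after median-of-ratios scaling they stood at 0.64 and 0.40, uncalled but with limma adjusted p of 0.000257 and 0.0175, so H2A.v turned direction. The libraries of eggs read 373.91, 360.11, 336.15 and 461.85 TPM for HMG-D and those of 9-d-old females 299.19, 462.91, 439.69 and 323.72 TPM, which overlap. Between 1-d-old larvae and eggs 7.09% of genes were called, 2.64% higher in larvae and 4.45% higher in eggs, and 3 of the 11 were higher in eggs, gene7946 (-3.61 ± 0.32), gene7615 (-2.74 ± 0.17) and gene7376 (-2.67 ± 0.22), with limma adjusted p of 3.07e-13, 2.74e-18 and 3.37e-14.

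From 1 to 9 days in females 17.7% of genes were called, 15.7% higher at 9 days and 2.02% higher at 1 day, and 5 of the 11 rose. They were gene7946 (7.59 ± 0.32), gene7376 (5.04 ± 0.22), gene7615 (3.71 ± 0.17), gene1436 (3.03 ± 0.17) and gene13266 (2.82 ± 0.11), all with limma adjusted p of 1.62e-20 or less. After median-of-ratios scaling, which turned the split of all genes from 2683 rising and 345 falling to 1043 and 1285, the first 3 were called and gene1436 (1.83) and gene13266 (1.66) were not. From 1 to 5 days in pupae 12.2% of genes were called, 7.17% higher at 5 days and 4.98% higher at 1 day, and 4 of the 11 rose, gene9851 (5.19), gene3237 (3.74), gene593 (3.58) and gene7946 (2.13). Because of replicate 2 the libraries of gene3237 and gene593 overlapped between the 2 ages. Leaving out replicate 2 of the 5-d-old pupae raised the changes to 6.47, 4.98, 4.81 and 2.77, and leaving out replicate 3 lowered those of the first 3 to 4.51, 3.03 and 2.87. The call of gene7946 was lost without replicate 3 (1.74) or replicate 4 (1.87) of the 5-d-old pupae.

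Histone chaperones and nucleosome assembly factors, which load histones onto DNA or take them off, stood with gene12712 more than with gene5345. Of the 24 in the list, 14 were higher in females and 1 in males of 9 days, beside 10.1% and 6.81% of all genes. The median log2 fold change was -2.24, beside 0.12 for all genes. From 1 to 9 days in females 17 rose, beside 15.7% of all genes, with a median of 2.87 beside 0.05. After median-of-ratios scaling 7 were higher in females of 9 days and 7 rose in females, where 845 and 1043 of all genes did. At 5 days 4 were higher in females, beside 4.84% of all genes. This count was 7 without replicate 3 of the 5-d-old females, the library in which gene12712 was also lowest. The 1 gene higher in males at all 3 ages was gene5109, nucleosome assembly protein 1-like 1, named here after its values were seen. It had 85.7 TPM on average in 9-d-old males and 0.05 TPM in females, and log2 fold changes of 5.70, 5.82 and 6.37 at 1, 5 and 9 days (SE 0.40 each).

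The 5 chaperone genes of highest level differed among themselves. The FACT complex subunit Ssrp1 (gene8496), part of a complex that moves histones during transcription and replication, averaged 441 TPM in females of 9 days against 4.44 TPM in eggs, a log2 fold change of -6.34 ± 0.17 (limma adjusted p = 6.50e-31), and in contrast to gene12712 it rose to 22.7 TPM in 1-d-old larvae. The nucleosome assembly protein gene7113 (1-like 1-A) averaged 515 TPM in females of 9 days against 330 TPM in eggs. The nucleoplasmin-like genes gene6081 and gene6083, whose protein family stores histones in frog eggs, had 245 and 98.15 TPM in 9-d-old females and 326 and 164 TPM in eggs, and protein SET (gene2265) 214 and 198 TPM. None of these 4 was called between eggs and 9-d-old females. Of the 24, 6 were higher in 9-d-old females than in eggs and 0 higher in eggs, beside 10.0% and 6.93% of all genes. After scaling these counts were 2 and 0, where 877 and 1385 of all genes were called. In eggs 3 were higher than in 1-d-old larvae, beside 4.45% of all genes. This count was 6 without replicate 2 of the 1-d-old larvae, and 0 after scaling, where 440 of all genes were higher in eggs.

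Genes of the sperm tail stood with gene5345. Of 74 matched on product words for outer dense fibres, tektins, axonemes, cilia and flagella, sperm, the testis or tubulin polyglutamylases, 36 were higher in males at 1 day, 36 at 5 days and 37 at 9 days, where 4.52%, 5.85% and 6.81% of all genes were. The count higher in females was 0 at each age, beside 0.117%, 4.84% and 10.1% of all genes. The gene gene1223 encodes outer dense fiber protein 3-like protein 2, of the fibres along the sperm tail in mammals, and had a mean of 1121 TPM in 9-d-old males and 0.10 TPM in females. In the same 19 libraries as above the level of gene5345 was between 0.718 and 1.08 times that of gene1223. Outer dense fiber protein 3-B (gene1231), with 293 TPM, and testis-expressed sequence 9 protein (gene3188), with 185 TPM, were also male-restricted. The tubulin polyglutamylase TTLL4 (gene9553), an enzyme that modifies tubulin, was higher in males only at 1 day (2.44 ± 0.27) and had 137 TPM in 9-d-old females against 59.8 TPM in males, and testisin-like (gene2925), a protease, had its highest mean in 3-d-old larvae (241 TPM), so not every member follows the sperm pattern. From 1 to 5 days in pupae 19 of the 74 rose and 1 fell, beside 7.17% and 4.98% of all genes. The count rising was 28 without replicate 2 of the 5-d-old pupae and 13 without replicate 3.

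Germ line and maternal RNA regulators stood with gene12712. Of 28 genes in this list 19 were higher in 9-d-old females and 0 in males, beside 10.1% and 6.81% of all genes. Against eggs, 13 were higher in 9-d-old females, beside 10.0% of all genes. Cyclin-B (gene5861), which the list took in, is a cell-cycle gene that drives entry into mitosis and no RNA regulator. It had a mean of 1081 TPM in 9-d-old females, 230 TPM in eggs and 1.46 TPM in 1-d-old larvae. Bicaudal C (gene5283) and Smaug (gene6690), which in Drosophila bind maternal mRNAs, had 571 and 543 TPM in 9-d-old females and 44.25 and 31.98 TPM in eggs, and maelstrom 1 (gene11797), of the piRNA pathway, had 498 and 94.1 TPM. For gene12712 the ratio of 9-d-old females to eggs was 4.44 ± 0.30, or 2.88 after scaling. The listed genes named so far had the same direction, but they were named for the highest stage means in the list. That choice favours genes high in 9-d-old females, so the shared direction is a description only. Exuperantia (gene1934), which in Drosophila acts in both oogenesis and spermatogenesis, had 1407 TPM in females and 593 TPM in males of 9 days. Like gene7946 it was higher in males at 1 day (4.38 ± 0.33). At 9 days it was not called in either direction (-1.25 ± 0.33), whereas gene7946 was higher in females.

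Yolk and eggshell genes had their highest summed level in the maturing females, far above that in eggs. The summed level of 29 such genes was between 16039 and 89247 TPM in 5-d-old females, between 6111 and 33544 TPM in 9-d-old females and between 639 and 804 TPM in 9-d-old males. In eggs it was between 649 and 1225 TPM. Other stages stood above the eggs, with 2589 to 3207 TPM in 9-d-old pupae and up to 2708 TPM in 3-d-old larvae. Of the 27 genes tested, 12 were higher in females and 2 in males of 9 days, beside 10.1% and 6.81% of all genes. Of the 27 tested, 16 were higher in 9-d-old females than in eggs and 3 higher in eggs, beside 10.0% and 6.93% of all genes. The vitellogenin-1-like gene11335, a yolk protein precursor, had a mean of 14222 TPM at 5 days and 5842 TPM at 9 days in females, whereas gene12712 had 227 and 955 TPM. The vitellogenin genes gene11334 and gene9671 and the vitelline membrane genes gene4569 and gene4571 were likewise higher in mean at 5 days than at 9 days.

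The genes whose pattern was most like each of the pair were found by Pearson's r over the 13 stage means of log2(TPM + 1), among the other 11238 genes with a stage mean of at least 10 TPM. These stage means share their libraries, and r is a description. For gene5345 337 genes had r above 0.99 and the first 10 lay between 0.9993 and 0.9999. They were gene12756, gene11058, gene12221 (venom allergen 3-like), gene9851, MSTRG.16518, gene11421, gene6506, gene11422, gene575 and MSTRG.13437, of which 8 have no informative product. Their mean levels in 9-d-old males ran from 153 TPM for MSTRG.13437 to 1341 TPM for gene11421. With so many genes at almost the same r the order depends on the measure, and Spearman's rho over the stage means shared 2 of the 10 and put 1 gene above 0.99.

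For gene12712 0 genes had r above 0.99 and 210 had r above 0.95. The first 10 were gene6299 (uncharacterized, r = 0.989), Nek4 kinase (gene8994), Mcm7 (gene1643), histone RNA hairpin-binding protein (gene3045), RRNAD1 (gene2156), cell division control protein 2 cognate (gene9517), ubiquitin hydrolase 36 (gene636), thymidylate kinase (gene3295), Mcm2 (gene7267) and MCM-binding protein (gene6653). Mcm2 and Mcm7 are subunits of the helicase that opens DNA for replication, thymidylate kinase makes a precursor of thymidine triphosphate, and the hairpin-binding protein binds the stem-loop of replication-dependent histone mRNAs. The hairpin-binding protein had a mean of 108 TPM in 9-d-old females, 38.9 TPM in eggs and 14.8 TPM in 1-d-old pupae, and between 4.24 TPM in 1-d-old males and 4.73 TPM in 9-d-old males. None of the 10 reached the level of gene12712 in 9-d-old females, the nearest being Mcm7 with 168 TPM. The other H1-like gene of females, gene7946, ranked 3935 with r = 0.589, below H3.4-like (rank 72), H2A.v (rank 321) and HMG-D (rank 334). Spearman's rho shared 2 of the first 10 and median-of-ratios scaling 3, and the 210 genes above 0.95 were 13 by Spearman's rho, 76 by Pearson's r over the 52 libraries and 116 after scaling.

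**Figure D5:**
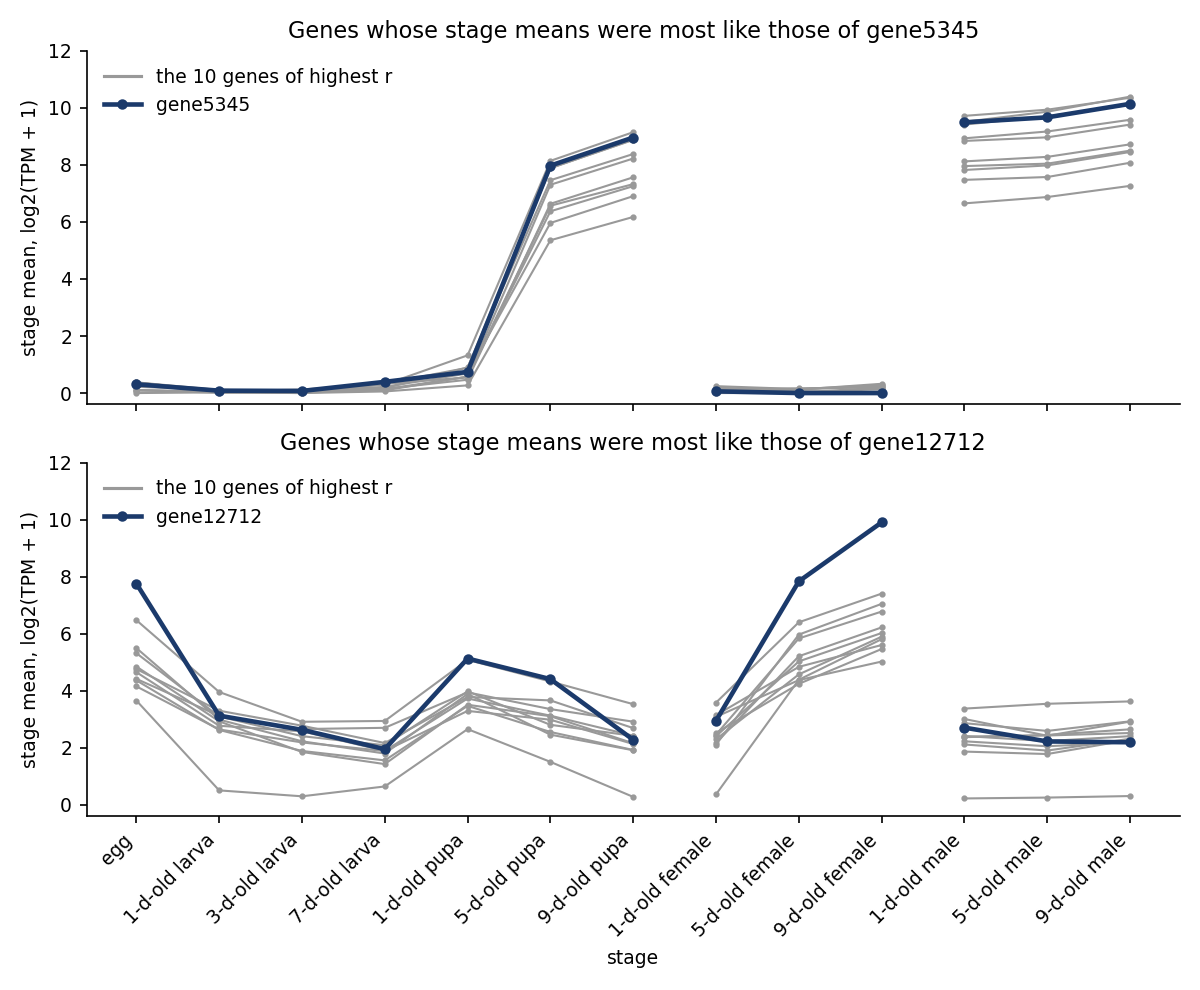
Stage mean TPM, drawn as log2(TPM + 1), of gene5345 (top) and gene12712 (bottom) in blue, each with the 10 genes of highest r in grey, with lines joined within development, females and males. The genes like gene5345 run almost parallel to it, and those like gene12712 share its highs in eggs, 1-d-old pupae and older females at lower levels.

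In the RefSeq gene order (assembly idZeuCucr1.2, used here for names and neighbours only) gene5345 lies between genes of both sexes, with the regulatory subunit of cAMP-dependent protein kinase on 1 side, beyond a locus not analysed here, and small RNA degrading nuclease 5 on the other, at 272 and 21.8 TPM in 9-d-old males and 82.9 and 43.1 TPM in 9-d-old females. The gene gene7946 lies between gene7947, uncharacterized, with 39.4 TPM in 9-d-old males and 0.155 TPM in females, and gene7945, cell death abnormality protein 1, with 0.125 TPM in males and 361 TPM in females. These neighbours were named after their values were seen, and whether the genes share reads was not examined.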

How the data were processed

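Poly(A)-selected RNA of whole-body pools was sequenced by the authors as paired-end Illumina reads. Trimming was by SeqPrep and Sickle, alignment by HISAT2 2.1.0 (the version in the submitters' processing notes) and assembly of further transcripts by StringTie. The deposited table holds TPM, which the authors made within each library with RSEM 1.3.1. The genome build is not given in the sources used here. Each of the 52 columns sums to about 1000000, libraries had not been scaled to each other, and the number of reads behind a value is unknown, since TPM keeps no counts (the study lists clean reads per library, which were not used as depth here). The authors tested counts with DESeq2. Counts were not used here, so the thresholds were kept and the test was limma 3.58.1 (R 4.3.3) on log2(TPM + 1), with trended, robust variances and a mean for each of 13 stages. A fold change on this scale understates the change of low genes. The filter kept the 17097 genes that exceeded 0.1 TPM in 4 libraries or more, and p-values were adjusted by Benjamini and Hochberg in each of 7 comparisons. The script was tested on simulated data.

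The 2 genes and the 5 lists, matched on product names, were chosen with earlier results of these data known. Named genes were the 2 chosen, the 10 genes most like each over the stage means, every gene of the histone and sperm nuclear protein list, and the 5 members of highest stage mean from each other list. Others are said to be named after their values were seen. Alternatives were a pseudocount of 0.1, no filter, median-of-ratios scaling (size factors from 6902 genes, 0.492 to 1.93), a log2 threshold of 1, a replicate block, only the compared stages, leaving out the 6 libraries of lowest mapped share, and leaving out each library. Of 13747 gene names 11109 matched the RefSeq table. No sequences were used here. Analysis used Python 3.11.15, numpy 2.4.6, pandas 2.3.3 and matplotlib 3.10.9. The replicates are separate pools of animals.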

Additional observations from a re-analysis of the deposited data

Results flagged for a closer look

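In the 9-d-old pupae replicate 4 lay far above the other 3 libraries, by a gap beyond the critical value of Dixon's test, for each of the 4 protamine-like and histone H1-like genes outside the chosen pair. It read 352.95 TPM for gene9851, 100.26 TPM for gene593, 78.5 TPM for gene3237 and 22.88 TPM for gene7946. These were the only such values among the 23 groups of 4 libraries examined, where chance gives about 1 in 20, and all 4 come from 1 library, so they are not independent. Of the chosen pair, given here without a test, this library read 954.23 TPM for gene5345 and 2.9 TPM for gene12712.

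The difference between the sexes changed from 1 to 9 days for 8 of the 11 listed histone and chromatin genes. The test was of the difference itself in limma, male minus female on the log2 scale, at an adjusted p below 0.05 without a fold threshold. The share of all genes that changed in this way was not counted, so the 8 are not set against a background. The difference changed by more than 2 for 5 of the 8, by -6.79 for gene7946 (adjusted p = 4.00e-17), -5.19 for gene7376 (1.09e-18), -3.95 for gene7615 (1.00e-18), -3.06 for gene1436 (3.35e-15) and -2.48 for gene13266 (1.87e-18). After median-of-ratios scaling the changes were -6.18, -4.38, -3.09, -2.20 and -1.64. It changed by less for DSP1 (gene2987, -1.56, adjusted p = 7.76e-13), H3.3 (gene6540, -0.96, 5.00e-09) and H4 (gene6094, -0.41, 0.00451), which after scaling stood at -0.71, -0.11 and 0.44, so that of H4 turned direction. The females of 1 and 9 days also differ in read length, as do the males, and 9-d-old females had the largest size factors, 1.89 on average against 1.11 in 9-d-old males.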

How the results depend on the processing

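The counts of called genes over all genes kept within 1.5 times under no filter, the replicate block, the compared stages alone, the loss of the 6 poorly mapped libraries and median-of-ratios scaling. With a pseudocount of 0.1 they were 1259 at 1 day between the sexes, 4777 between eggs and 9-d-old females, 2157 between 1-d-old larvae and eggs and 3785 between 5-d-old and 1-d-old pupae, against 793, 2896, 1213 and 2078. A log2 threshold of 1 gave 7051, 4580 and 1261 genes between the sexes at 9, 5 and 1 days, 7310 between eggs and 9-d-old females, 4751 between larvae and eggs, 6404 between 9-d-old and 1-d-old females and 5336 between pupae. Leaving out 1 library gave 2844 to 2992, 1788 to 1879 and 793 to 801 genes between the sexes at 9, 5 and 1 days, and 2830 to 2984, 1140 to 1257, 2998 to 3119 and 1964 to 2232 in the other 4 in the same order.

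Median-of-ratios scaling shifted the median log2 fold change of all genes by 0.24 at 9 days and 0.16 at 5 days between the sexes, by 0.12 between eggs and 9-d-old females, by 0.31 between larvae and eggs, by -0.21 between the females and by 0.19 between the pupae. It split the calls between eggs and 9-d-old females into 1385 and 877 (1184 and 1712 unscaled), between larvae and eggs into 671 and 440 (452 and 761) and between 5-d-old and 1-d-old pupae into 1439 and 469 (1226 and 852). Besides the changes given above, H2A.v (gene1436) was at -1.90 and uncalled between the sexes at 5 days. Scaled means of gene5345 were 823 TPM in 1-d-old and 1013 TPM in 9-d-old males and 0.593 TPM in 7-d-old larvae. Those of gene12712 were 506 TPM in 9-d-old females, 176 TPM in eggs, 23.0 TPM in 1-d-old pupae, 9.32 and 5.28 TPM in 3-d-old and 7-d-old larvae and 3.22 TPM in 9-d-old males. The step of sperm tail genes in pupae (19 rising) was 41 with a pseudocount of 0.1.

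No clear pairing by replicate number was seen, as libraries of the same number had deviations correlated at -0.05 to 0.07. The same number gave the highest correlation for 3 of 4 libraries between 1-d-old larvae and eggs, and for 0 to 2 in the other comparisons. Such correlations cannot exclude a shared batch. A fit with the replicate block called 2889 genes between the sexes at 9 days, as the fit without it did, and the block moved 0 of 84 counts by over 1.5 times. TPM without counts gives no counting limit for a value of 0.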
